A study of Mus musculus with 10 samples.

Results

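The Nlrp1 cluster on mouse chromosome 11 holds the inflammasome sensor genes Nlrp1a and Nlrp1b, and it was described here through the 50 array probes that start between 70.7 and 71.4 Mb of chromosome 11 (mm9, the build of the files), out of 161460 autosomal probes and 170305 probes in all. The window was chosen by the animals' log2 ratios themselves, since earlier results of the same arrays had shown a gain at 2 levels there, and the levels are therefore given as a description with no test. Liver DNA of 10 mice descended from the ZFLacZ transgenic line was compared with a common reference by array-based comparative genomic hybridisation, which measures the amount of DNA at each probe relative to the reference. The 5 ICSI-derived animals were born after intracytoplasmic sperm injection, in which a sperm is placed into an oocyte, from testis cells of the line kept frozen for 14 years. Their oocytes came from DBA x C57BL/6 females and the sperm from ZFLacZ, a line first made on an SJL x C57BL/6 background. The 5 naturally born animals were adult wild-type ZFLacZ progeny, per the labels, which give no age for the ICSI-derived animals. In either group 3 animals carry the label male and 2 the label female. Background strain and way of conception therefore changed together between the groups and cannot be told apart. Each animal's DNA carried Cy5. The Cy3 channel held the reference, in which DNA of adult C57BL/6, SJL and DBA mice had been mixed in equal parts. A log2 ratio of 0 means the same signal as in the pool, and a ratio cannot tell a difference in copy number from a difference in sequence under the probe.

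NLRP1 proteins are sensors of the innate immune system. When they are activated, for instance when the anthrax lethal factor protease cleaves mouse NLRP1B, they assemble an inflammasome, a complex that turns on caspase-1, which matures interleukin-1 beta and triggers pyroptosis, an inflammatory cell death. Mouse strains carry different Nlrp1b alleles, which set whether their macrophages die in response to lethal toxin, and the cluster is known as a tandem array of related copies. In the RefSeq gene order of a later build (GRCm38.p6), Nlrp1a is followed by Nlrp1b, the small nucleolar RNA gene Gm23266 and the pseudogene Nlrp1c-ps. The files name no genes and carry mm9 coordinates, so single probes were not assigned to these genes.

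As an example of sequence shared between the copies, RefSeq promoters of Nlrp1a and Nlrp1b are given here, each from 250 bases before to 50 after the gene's start. They run 5′ to 3′ on the minus strand, with the longest run that both share, 37 bases, in capitals. The coordinates are those of GRCm38.p6 and do not match the probe positions in mm9. Of 282 aligned bases, 253 were identical (89.7%). RefSeq gives a second start for Nlrp1b, chosen against here because its promoter was less alike: only 33 of its bases aligned to that of Nlrp1a, 21 of them identical (63.6%). The array's probes are 60 bases long, and whether a probe of the window binds more than 1 copy was not tested.
Nlrp1a promoter, chr11:71144655-71144954: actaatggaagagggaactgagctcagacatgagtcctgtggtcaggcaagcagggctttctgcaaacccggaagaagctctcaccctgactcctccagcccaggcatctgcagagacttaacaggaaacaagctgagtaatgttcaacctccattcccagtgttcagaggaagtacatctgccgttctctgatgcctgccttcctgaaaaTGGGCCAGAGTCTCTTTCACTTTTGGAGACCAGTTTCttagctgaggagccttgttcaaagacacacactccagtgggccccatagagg
Nlrp1b promoter, chr11:71230684-71230983: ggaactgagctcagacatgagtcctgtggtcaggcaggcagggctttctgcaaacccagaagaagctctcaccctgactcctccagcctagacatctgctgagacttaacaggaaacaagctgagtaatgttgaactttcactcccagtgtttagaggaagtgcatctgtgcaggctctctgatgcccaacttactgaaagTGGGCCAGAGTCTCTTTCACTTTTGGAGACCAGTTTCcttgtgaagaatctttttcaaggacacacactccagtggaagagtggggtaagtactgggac

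Signal from the animals' DNA exceeded that of the pool over a run of 11 neighbouring probes, and the rest of the window averaged near 0. Of the 50 members, 11 lay at 0.25 or above on the log2 scale in all 10 animals, against a background of 0.409% of autosomal probes. At 0.4 or above there were 7, against a background of 0.111%. With normexp, 5 members reached 0.25 in all animals, against a background of 0.835%. The 11 were consecutive. They fell into 3 probes at 70989862 to 71014358 that stood at 1 level in all animals and 8 probes at 71032791 to 71107103, called the core, that stood at 2 levels. The core spanned 74.3 kb and was the longest run covered by a called gain in 10 of 10 animals. The members at the ends of the window were near 0. The first, at 70712846, ran from -0.42 to 0.13 with a median of -0.09, and its neighbour outside the window, at 70697525, from -0.10 to 0.15 with a median of 0.03. The last, at 71387742, ran from -0.28 to 0.13 with a median of -0.14, and the next probe outside, at 71430789, from -0.14 to 0.12 with a median of -0.04.

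**Figure D1:**
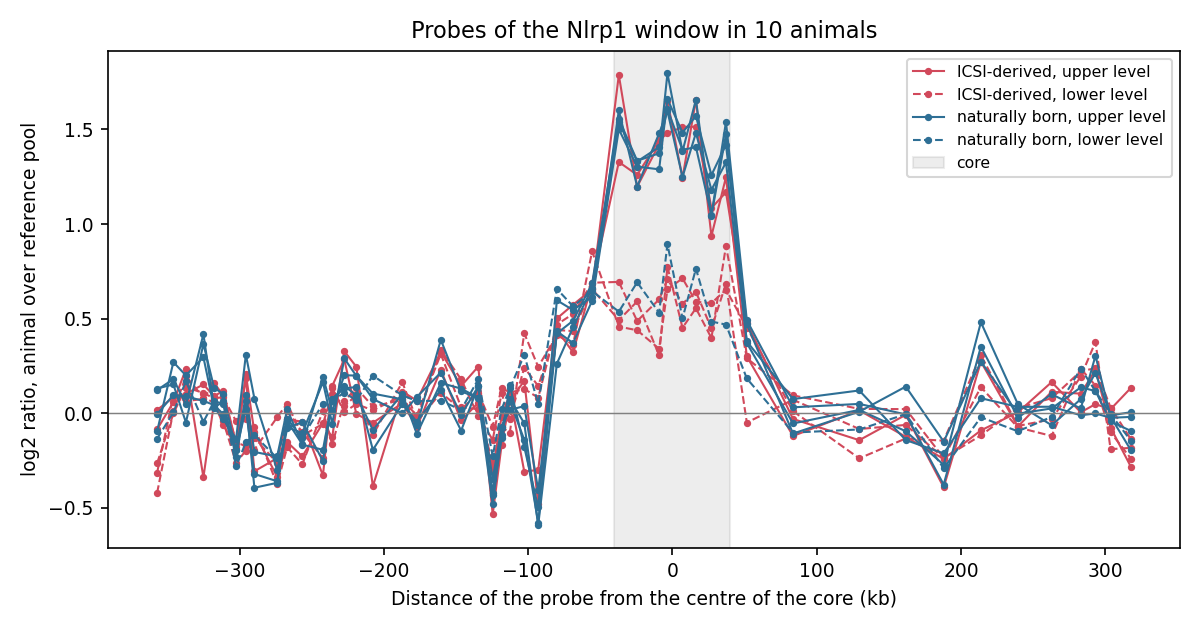
Log2 ratio of each of the 50 member probes (y axis) by distance from the centre of the core in kb (x axis), 1 line per animal, coloured by group and dashed for the 4 animals of the lower core level. The lines overlap around 0 over most flank probes, rise together over the 3 probes before it and part into 2 bands over the 8 core probes.

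The core put 4 animals at a lower and 6 at an upper level, with nothing in between. Among ICSI-derived animals the mean log2 ratio of the 8 core probes was 1.35 in replicate 1, 0.61 in replicate 2, 0.56 in replicate 3, 0.55 in replicate 4 and 1.39 in replicate 5. Among naturally born animals it was 1.39 in replicate 1, 1.41 in replicate 2, 1.45 in replicate 3, 1.44 in replicate 4 and 0.61 in replicate 5. The lower level thus consisted of naturally born replicate 5 with ICSI-derived replicates 2, 3 and 4, and the 2 levels were 0.74 apart at their closest. As linear ratios, the animals of the lower level had between 1.47 and 1.53 times the signal of the pool and those of the upper level between 2.55 and 2.74 times. The lower level depended on the background correction: with normexp in place of the processed signals it lay between 0.28 and 0.40 on the log2 scale, while the upper level lay between 1.24 and 1.37. Within a level the animals differed by at most 0.06 (lower) and 0.10 (upper), while the SD over the 8 probes of 1 animal ran from 0.10 (ICSI-derived replicate 2) to 0.29 (ICSI-derived replicate 5).

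Each core probe alone divided the animals in the same way. At all 8 probes the widest gap between neighbouring animals separated those 4 animals from the other 6, and the gap was between 0.28 and 0.69, with a median of 0.56. The 2 sets were taken from the mean of these same 8 probes, so the agreement is partly built in. With a gap over 0.2, 0.0303% of all autosomal probes parted the animals this way. The first core probe, at 71032791 to 71032850, read 1.33, 0.69, 0.49, 0.46 and 1.79 in ICSI-derived replicates 1 to 5 and 1.60, 1.54, 1.56, 1.50 and 0.54 in naturally born replicates 1 to 5. The last, at 71107044 to 71107103, read 1.17, 0.68, 0.88, 0.65 and 1.25 in ICSI-derived and 1.33, 1.54, 1.47, 1.42 and 0.47 in naturally born animals. ICSI-derived replicate 3 was the animal of the lower level nearest to the upper one at that probe, where the gap was the narrowest of the 8. The member with the highest mean over animals was the core probe at 71066482 to 71066541, at 1.28 ± 0.46 (SD, n = 10), and the lowest core probe was that at 71096957 to 71097016, at 0.85 ± 0.33 (SD, n = 10). Over all core probes, values of the lower level ran from 0.31 to 0.89 and those of the upper level from 0.94 to 1.80, so the 2 levels did not overlap even across probes.

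The 3 probes before the core did not follow the 2 levels. Their mean was 0.48, 0.56, 0.51, 0.54 and 0.58 in ICSI-derived replicates 1 to 5 and 0.59, 0.46, 0.53, 0.47 and 0.62 in naturally born replicates 1 to 5, or 0.53 ± 0.05 (SD, n = 10) in all. Animals of both core levels overlapped there, from 0.51 to 0.62 for the lower level and from 0.46 to 0.59 for the upper one. In the 4 animals of the lower level the core was at the height of these 3 probes, with differences from -0.01 to 0.05, but with normexp it lay below them, with differences from -0.28 to -0.24. In the other 6 the core stood between 0.80 and 0.97 above them (0.61 to 0.81 with normexp). The probe next to the core, at 71014299 to 71014358, ran from 0.59 to 0.86 with a median of 0.66, and the probes at 70989862 and 71001060 had medians of 0.44 and 0.47.

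Segmentation of each animal's chromosome 11 profile followed this shape. A gain over the core was called in all 10 animals. It held exactly the 8 core probes in 5 of the 6 animals of the upper level and 9 probes, from 71014299, in ICSI-derived replicate 1. In the lower level it also took in the probes before the core. It held 11 probes at a mean of 0.59 in ICSI-derived replicate 2 and 11 at 0.61 in naturally born replicate 5. In ICSI-derived replicates 3 and 4 it held 12 at 0.52 and 14 at 0.51, and there it also took in the probe to the right of the core. In ICSI-derived replicate 4 it began in the left flank, at 70967264. The longest call, in ICSI-derived replicate 4, belonged to the array with the most noise between neighbouring probes, 0.208 against 0.140 to 0.201 on the others, per the file headers. With a penalty factor of 6 in place of 3, no segment was called over the core in that animal.

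**Figure D2:**
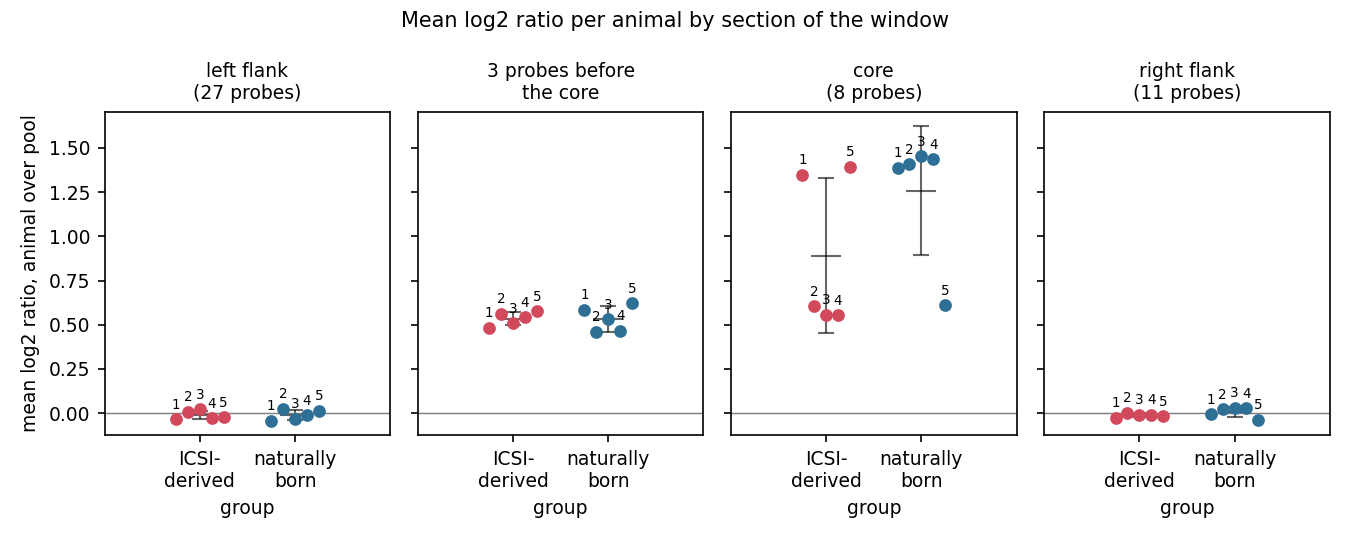
Mean log2 ratio per animal (y axis) in the left flank, the 3 probes before the core, the core and the right flank, by group. Points are animals with their replicate numbers, and bars are the group mean ± SD (n = 5). Only the core panel parts the animals, and each group has animals on both levels.

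Beyond the gain the members lay close to the pool. The left flank of 27 probes averaged from -0.04 to 0.02 per animal and the right flank of 11 probes from -0.04 to 0.03. Single values in the flanks ran from -0.59 to 0.48. The single probe to the right of the core, at 71121491 to 71121550, was intermediate: it read 0.48, -0.05, 0.29, 0.45 and 0.30 in ICSI-derived replicates 1 to 5 and 0.38, 0.49, 0.37, 0.47 and 0.18 in naturally born replicates 1 to 5. The 2 levels overlapped at it, and the next probe, at 71153510, was at -0.01 ± 0.08 (SD, n = 10). The right border of the gain thus falls between probes 46.4 kb apart, counting from the last core probe.

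The reverse order of animals was seen at a probe of the left flank. At 70976924 to 70976983, the last probe before the rise, the 5 ICSI-derived replicates read -0.48, 0.08, 0.14, 0.25 and -0.30 and the 5 naturally born replicates -0.50, -0.59, -0.41, -0.58 and 0.05. The 4 animals of the lower core level were highest here, at 0.05 to 0.25, and the other 6 lay at -0.59 to -0.30. The probe at 71352905 to 71352964, in the right flank, parted the animals the same reversed way with a gap of 0.06, from 0.19 to 0.24 against -0.01 to 0.14. Both were singled out after their values were seen. Counting every member, the values of the 2 sets of animals did not overlap at 14 of 50, which were the 8 core probes and 6 in the flanks, against a background of 0.851% of autosomal probes. The 8 core probes define the 2 sets, so their part of this count was given. Of the 6 in the flanks, 3 followed the order of the core, with the 4 animals lower. They read -0.42 to -0.13 against -0.10 to 0.13 at 70712846, -0.20 to -0.03 against 0.02 to 0.31 at 70774347 and 0.01 to 0.11 against 0.13 to 0.33 at 70842555. The lowest member by mean over animals was the probe at 70945389 to 70945448, at -0.32 ± 0.15 (SD, n = 10), where the same 4 animals read -0.26 to -0.07 and the other 6 -0.54 to -0.31.

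The 2 levels were seen in the animals' own DNA channel. Relative to the array's autosomal median in the same channel, the mean log2 Cy5 intensity of the core probes was between -0.70 and -0.63 in the 4 animals of the lower level and between 0.12 and 0.19 in the other 6. The Cy3 intensity, that of the pool, was between -1.28 and -1.18 on all 10 arrays, a range of 0.10 against 0.89 in Cy5. All 8 core probes had a mean Cy3 intensity under 0, averaging -1.24, and 9.99% of autosomal probes lay below that average. The left and right flanks averaged 0.03 and -0.0007, with single left-flank probes down to -2.60. Intensities of different probes also depend on each probe's own response. Whether the pool held less matching DNA at the core was not tested. No member was saturated or carried an outlier flag on any array, and all 50 were well above background on all 10.

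**Figure D3:**
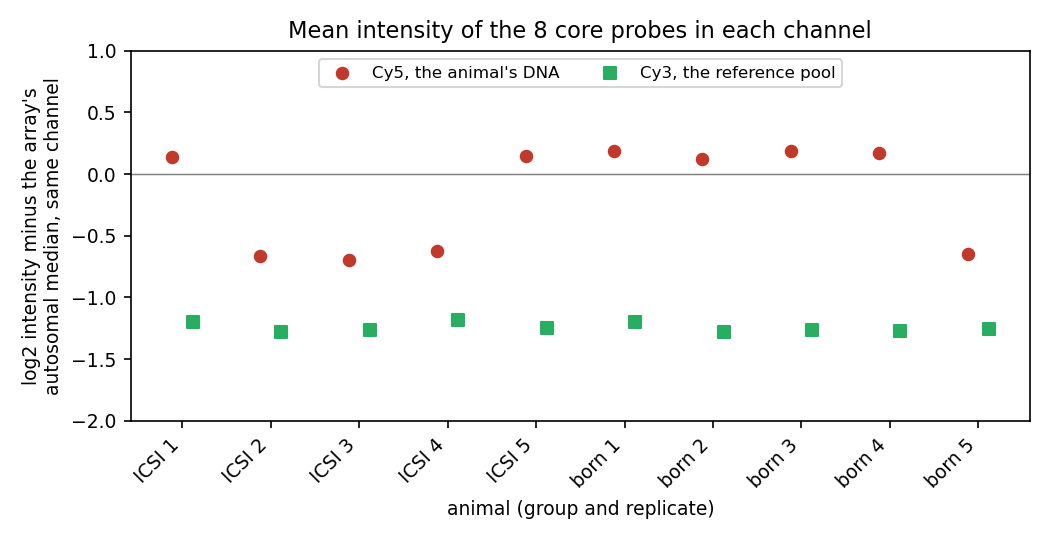
Mean log2 intensity of the 8 core probes relative to the array's autosomal median (y axis) for each animal (x axis), with Cy5, the animal's DNA, as circles and Cy3, the reference pool, as squares. The squares stay between -1.28 and -1.18, while the circles fall into 2 sets, from -0.70 to -0.63 and from 0.12 to 0.19.

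For scale, the step between the levels can be set beside chromosome X. There the 4 animals labelled female averaged 0.27 ± 0.01 (SD, n = 4) and the males, without the array labelled naturally born replicate 3, -0.58 ± 0.02 (SD, n = 5), a step of 0.85 for a change between 1 and 2 copies. This is a difference of means, whereas the 0.74 given for the core is the closest gap between animals of the 2 levels. The measures are unlike, and no copy number was assigned to the core from them. The array labelled naturally born replicate 3 lay between the sexes, at -0.03, and fitted neither label. At the core that array was in the upper level at 1.45, with the other 5 animals of that level between 1.35 and 1.44.

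Both levels were present in both groups, in both labelled sexes and on each of the 3 slides. The lower level held 3 of 5 ICSI-derived and 1 of 5 naturally born animals, and 2 of 4 labelled females and 2 of 6 labelled males. On slide 1 it held 1 of 2 ICSI-derived and 0 of 2 naturally born animals. On slide 2 it held 2 of 2 and 0 of 2, and on slide 3 it held 0 of 1 and 1 of 1. The core averaged 0.89 ± 0.44 (SD, n = 5) in the ICSI-derived group against 1.26 ± 0.36 (SD, n = 5) in the naturally born group, a difference of -0.37, and the groups overlapped. The difference was -0.42 within slide 1, -0.89 within slide 2 and 0.78 on slide 3, which held 1 animal of each group. The 3 probes before the core averaged 0.53 ± 0.04 and 0.53 ± 0.07 (SD, n = 5 each).

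No member passed limma's test of ICSI-derived against naturally born animals at an adjusted p of 0.05 (0 of 50, against a background of 0.0198%, 32 of 161460 probes). Without adjustment, 2 members had a limma p under 0.05, as did 5274 autosomal probes in all, 3.27% of those tested. The count of members rested on single animals: it was 12 without naturally born replicate 5, and leaving out ICSI-derived replicate 5 or 1 gave 11 and 9. It was 1 without naturally born replicate 3 or 4, and 0 without any 1 of the remaining 5 animals. One of the 2 was the probe at 70976924, higher in ICSI-derived animals by 0.34 ± 0.15 (SE, limma adjusted p = 1). The other, at 70712846, went the opposite way, with a difference of -0.22 ± 0.09 (SE). Their unadjusted limma p values were 0.0376 and 0.0249. The 8 core probes were lower in ICSI-derived animals by values from -0.46 to -0.30, with SEs from 0.16 to 0.27, and the smallest unadjusted limma p among them was 0.0527 (adjusted p = 1). No member passed the test of labelled females against labelled males either (0 of 50, background 0.00372%, 6 of 161460 probes). There limma gave 0 members an unadjusted p under 0.05, and 4705 probes in all.

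Probes outside the window were ranked by how closely they followed the core over the 10 animals, as the mean absolute difference from the core mean after each had been centred on its own mean. The 20 closest of 161410 autosomal probes all lay on chromosome 11, which holds 5.54% of them, with differences from 0.03 to 0.15 against a median of 0.40 over all. The closest was at 82850482 to 82850541, 11.78 Mb beyond the core, with a difference of 0.03. It read 0.54, -0.15, -0.14, -0.24 and 0.60 in ICSI-derived replicates 1 to 5 and 0.57, 0.65, 0.59, 0.64 and -0.20 in naturally born replicates 1 to 5. The next were at 64967894 (difference 0.07), 96887737 (0.07), 74530341 (0.08) and 83492037 (0.08). The 10 neighbours of each of these 5 probes averaged between -0.10 and 0.22 in every animal, though an average can hide a single dividing neighbour. Near the closest probe, the one at 82832008 to 82832067 parted the animals in the reverse order, with a gap of 0.23. The 5 closest probes on other autosomes, at ranks 23 to 34, lay on chromosomes 7, 14 and 2. Their differences were 0.15 to 0.17, with the 2 levels overlapping at 2 of the 5.

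**Figure D4:**
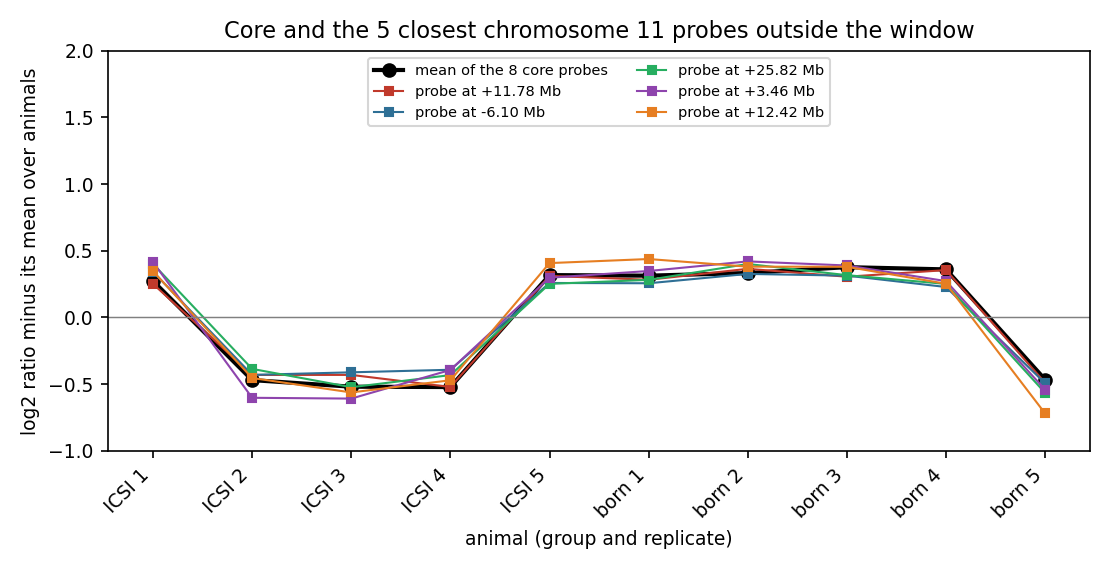
Log2 ratio minus its mean over animals (y axis) for each animal (x axis), for the mean of the 8 core probes (black) and the 5 closest chromosome 11 probes outside the window, named by their distance from the core in Mb. All 6 lines put the 4 animals of the lower core level below 0 and the other 6 animals above it.

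The same division of the animals recurred along a long stretch of chromosome 11. A widest gap over 0.2 parted the 10 animals as the core does at 38 of 8944 chromosome 11 probes outside the window (0.425%), and at 2 of 152466 probes on other autosomes (0.00131%). Over all autosomal probes, members included, the share was 0.0303%. The 38 probes lay between 61583794 and 96887796, a span of 35.3 Mb around the core. The animals of the lower core level were also lower at 29 of them and higher at the other 9. Within 5 Mb of the core's centre 1.91% of probes on the lower-coordinate side and 1.64% on the other side did so. Between 10 and 20 Mb above it the share was 2.29%, and between 5 and 10 Mb above it was 0 of 471 probes. No probe farther than 10 Mb below or 30 Mb above divided the animals this way. The gap of the 38 reached 1.70, at 89647055 to 89647114, where the animals of the lower level were higher. Without naturally born replicate 3 there were 40 such probes on chromosome 11 and 4 on other autosomes. Without ICSI-derived replicate 2 there were 90 and 33, and without the 3 noisiest arrays 59 and 82. The count on other autosomes also rose to 32 without naturally born replicate 2, beside 38 on chromosome 11, to 19 and 16 without ICSI-derived replicates 4 and 3, beside 50 and 45, and to 11 without naturally born replicate 5, beside 41. Over the 10 animals left out in turn it ran from 4 to 33.

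On the lower-coordinate side the most frequent division differed by 1 animal. Of 128 chromosome 11 probes, members included, at which a gap over 0.3 parted the animals with at least 2 on each side, 32 had the core's division, from 61583794 to 96887796. Another 31 set apart only 3 of those 4 animals, with ICSI-derived replicate 2 on the other side, and these lay from 14042102 to 58651664. The positions of the 2 sets did not overlap. Within the span of the first set, 8 probes divided the animals otherwise. Other divisions were present within the span of the second set too. Among them were 4 probes at 25887591 to 31106450 (ICSI-derived replicates 1, 2 and 4). The next most frequent divisions were found at 7 probes each. One, of ICSI-derived replicate 3 and naturally born replicate 5, lay at 29557029 to 31227838, also within the second span. The other, of naturally born replicate 2 with ICSI-derived replicates 1, 2 and 3, lay at 115321476 to 119174384.

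**Figure D5:**
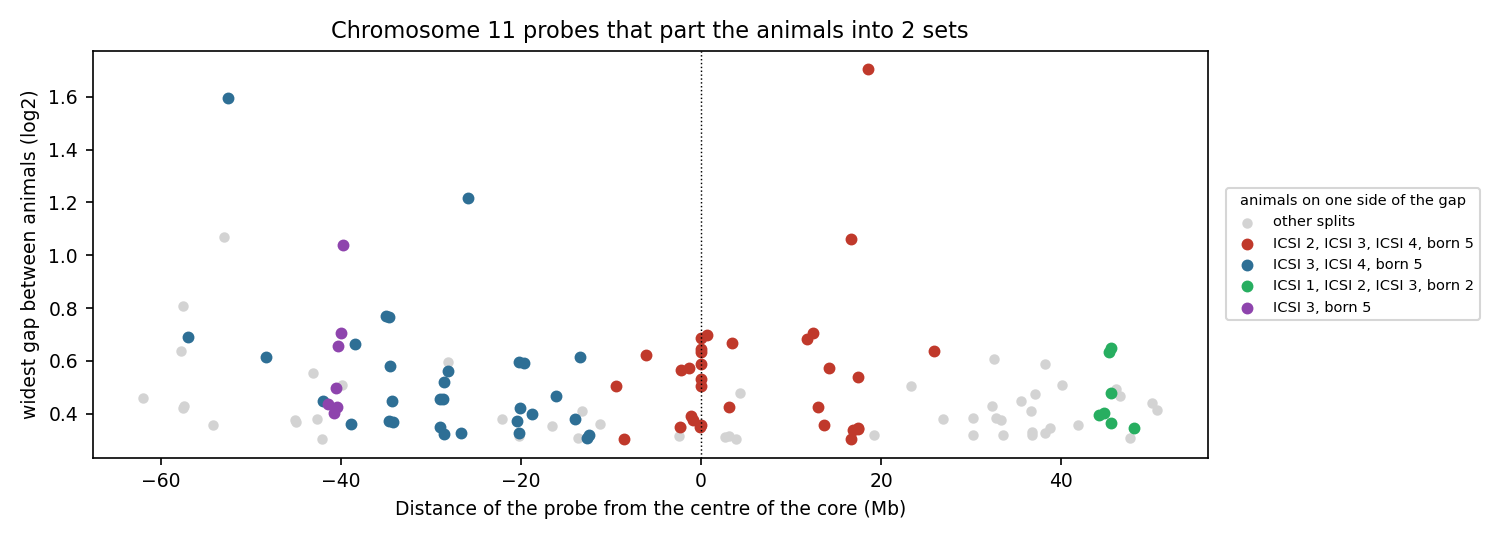
Chromosome 11 probes that part the animals into 2 sets, by distance from the centre of the core in Mb (x axis) and width of the gap on the log2 scale (y axis), coloured by the smaller set of animals. The division of the core, with the 4 animals of its lower level on 1 side, covers the span from -9.49 to 25.82 Mb, and that without ICSI-derived replicate 2 lies between -57.03 and -12.42 Mb. Probes with other divisions lie within both spans.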

How the data were processed

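The members and the ways of describing them were chosen with earlier results of these data known. The scanner files hold deposited spot intensities, which Feature Extraction 10.7.3.1 had background-subtracted and dye-normalised, as the file headers record. The deposited log10 ratios of the value table equal the log10 ratio in the scanner files, so its direction is Cy5 over Cy3. Partek 6.5 is named in the submitters' processing notes with no role. Only 6 headers give the build, mm9, and probe coordinates are identical on all 10 arrays. Each of the 10 arrays held 174305 non-control spots, and precision is limited by having 10 arrays.

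Control spots were left out, spots of a probe were averaged, and the log2 ratio of the processed signals was centred on the array's autosomal median, with no loess. Each animal is 1 sample. Group and sex were fitted to all autosomal probes with limma 3.58.1 in R 4.3.3, two-sided, with Benjamini-Hochberg adjustment at 0.05. Optimal partitioning divided chromosome 11 into stretches of constant mean, with single values capped at 4 robust SD from the median of the 10 nearest probes (at least 5 probes, penalty factor 3, gain called at a mean of 0.25). Named members are the ends of the core and its neighbours, the extremes by mean and members whose animals change order. The core's levels were not tested, since they chose the members. The division into core and the 3 probes before it, and all counts of probes that part the animals, came after seeing the values. The group comparison was tested on simulated data over 161460 probes, where limma recovered 25% of changes of 0.3 and 93% of changes of 0.8, with 5 false calls. The changed probes were drawn from all autosomal probes, each with its own spread. The core probes had SEs of 0.16 to 0.27 in this comparison, above those of every other member. The recovery rates therefore do not apply to the core. Segmentation recovered 29 of 30 simulated segments of 8 probes at 0.6 and 30 of 30 at 1.4. These lay in flat profiles of independent noise, shorter than chromosome 11, with no raised probes beside the segment. The rates therefore do not apply to the extent of the calls in the lower level, which also took in probes before the core. Python 3.11.15, numpy 2.4.6, pandas 2.3.3, numba 0.67.0 and Biopython 1.88 were used.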

Additional observations from a re-analysis of the deposited data

Results flagged for a closer look

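Of 16 sets of 5 animals examined, 3 held a value far from the other 4. The usual chance rate of about 1 in 20 cannot be set against this count. The core's levels chose the window, and the probe at 70976924 was picked for how it parts the animals. All 3 belong to naturally born replicate 5, and they share their probes or animals. Its core mean was 0.61, against 1.39 to 1.45 in the other naturally born animals. Its relative Cy5 intensity over the core was -0.64, against 0.12 to 0.19. At the probe at 70976924 the naturally born replicate 5 value was 0.0503, against -0.59 to -0.41. The ICSI-derived animals had both levels among them and gave no such value.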

How the results depend on the processing

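The 4 animals of the lower level were the same under all 8 alternatives for the core level, and the gap between the levels stayed between 0.70 (loess) and 0.84 (normexp). Several of the 8 could barely move the core. The deposited ratios equal those of the scanner files, and no core probe was flagged or failed the background filter. Recentring shifted all probes of an array alike, but each array by its own amount. The gap was 0.75 when centred on all probes and 0.71 when centred on chromosome 11. The informative alternatives were thus normexp, loess, the median over the core probes and, for the distance between animals, recentring. With normexp the 4 lower levels fell to 0.35, 0.28 and 0.33 in ICSI-derived replicates 2, 3 and 4 and to 0.40 in naturally born replicate 5, beyond 1 SD over their probes. The other 76 of 80 recomputed levels moved by less, many of them under alternatives that could barely move the core. The number of members at or above 0.25 in all animals was 5 with normexp, where the share of all autosomal probes rose from 0.409% to 0.835%, and 7 at a threshold of 0.4, against 11. The difference of the group means, -0.37, was -0.89 within slide 2 and turned to 0.78 within slide 3. It lay between -0.53 and -0.28 when single animals were left out. No member was called by limma between groups in 19 alternatives or between sexes in 18, including each animal left out. The replicate numbers did not pair the animals: correlations of same-numbered animals ran from -0.28 to 0.15, and with the replicate block limma called 0 members and 25 probes in all between groups, against 32. The number of chromosome 11 probes parting the animals as the core does was 90 without ICSI-derived replicate 2 and 59 without the 3 noisiest arrays, an alternative chosen after seeing the data, and stayed between 37 and 50 in the other 16. Over single animals left out it ran from 38 to 90, and on other autosomes from 4 to 33. Fewer animals have to agree when some are left out. On chromosome 11, however, leaving out any animal but ICSI-derived replicate 2 gave only 38 to 50 such probes. With all animals kept and a gap over 0.3, 31 probes between 14042102 and 58651664 set apart the lower-level animals except that replicate. How many of these 31 were among the 90 was not tested. The median extent of the called gain, 8.5 probes, was within 1.5 times under the 3 segmentation alternatives.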
